A study of Mus musculus with 4 samples.

Results

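Broad ESC-only islands are wide stretches of acetylated chromatin that were found in mouse embryonic stem cells (ESC) and had no counterpart in the neural progenitor cells (NPC) made from them. The mark is acetylation of histone H4 at lysine 16 (H4K16ac), and an island is a stretch in which the peak caller SICER joined neighbouring windows holding more reads than the background. The islands were selected on the calls themselves. An ESC island on chromosomes 1 to 19 was taken if it was at least 8000 bp wide, held fewer than 200 reads per kb, and shared no base with any NPC island. This left 869 islands of the 39508 autosomal ESC islands. Because width, density and overlap chose them, these values are given as a description and without a test.

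H4K16ac is a mark of open, transcribed chromatin. The charge on lysine 16 normally helps nucleosomes to stack, and its acetylation weakens that contact. The acetyl group is written by the acetyltransferase MOF, which works in the MSL and NSL complexes, and is removed by deacetylases such as SIRT1. In ES cells the mark lies over active promoters, gene bodies and enhancers, and MOF is needed for self-renewal. Neural progenitors leave the pluripotent state and activate Sox1 and other neural genes.

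Both cell types came from 46c, a mouse ES cell line with GFP in the Sox1 locus, so that cells fluoresce once they adopt a neural fate. ESC were undifferentiated. NPC had been differentiated for 5 days with the supplements NB27 and Neuro2 and were sorted for GFP, and so stand for the Sox1-positive cells of 1 line. Each cell type gave 1 H4K16ac library and 1 input library of chromatin cut with micrococcal nuclease, and both immunoprecipitations used the same Millipore antibody. With 1 library per cell type, no difference between ESC and NPC could be checked against replicates, and no p-value was computed. Exact 95% intervals are given for shares and order-statistic 95% intervals for medians. They treat islands as independent draws, which neighbouring islands may not be, and cover no variation between cultures.

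The deposited lists give the reads inside islands and nothing outside them. A stretch without an NPC island may therefore still carry the mark below the level needed for a call, and its NPC reads are unknown. On the autosomes the ESC list held 17629556 reads in islands and the NPC list 24339316 reads in 48170 islands. Positions are on mouse build mm9. No gene annotation or sequence of that build was used here, so the islands are given by position, and the loci of ESC and NPC marker genes were not examined.

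A missing NPC counterpart was less common among wide ESC islands than among ESC islands in general. Of all autosomal ESC islands, 23395 (59.2%) shared no base with an NPC island. Among the 5922 that were at least 8000 bp wide and under 200 reads per kb, the 869 islands described here made up 14.7% (13.8% to 15.6%). The other 5053, called overlapped broad islands below, serve for comparison. The 869 islands covered 9.71 Mb, or 5.12% of the bases in ESC islands, and held 925675 reads, or 5.25% of the reads in ESC islands.

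Among broad ESC islands, coverage by NPC islands of at least 90% of the bases was most frequent, and a touch of less than 10% least frequent. At least 90% of the bases lay in NPC islands in 2628 broad islands (44.4%). Coverage of 50 to 90% was found in 1691 islands (28.6%) and coverage of 10 to 50% in 683 (11.5%). Only 51 (0.861%) were touched over less than 10% of their bases, so islands that narrowly escaped the rule through a small overlap were few beside the 869 with none.

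Most of the broad ESC-only islands lay just above the width limit. Their median width was 9.8 kb (9.6 to 10 kb), with quartiles at 8.8 and 12 kb and a maximum of 69.2 kb. Overlapped broad islands had a median of 12.4 kb (12.2 to 12.6 kb). Islands of 8 to 12 kb made up 74.6% of the ESC-only set and 45.4% of the overlapped set. At the limit itself, 57 broad ESC-only islands were exactly 8000 bp wide, and 64 ESC-only islands under 200 reads per kb missed it at 7800 bp. These groups had median densities of 88.6 and 79.6 reads per kb.

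The wider a broad ESC island was, the less often it lacked an NPC counterpart. In the class of 8 to 10 kb, 441 of 1819 islands (24.2%, 22.3% to 26.3%) shared no NPC base. The share was 18.4% (16.2% to 20.8%) at 10 to 12 kb, 11.02% (9.36% to 12.8%) at 12 to 16 kb and 6.15% (4.77% to 7.78%) at 16 to 24 kb. At 24 kb and above it was 14 of 640 islands (2.19%, 1.20% to 3.64%). A wide island also has more bases with which to meet an NPC island, and how much of this order comes from that alone was not tested.

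Density followed another pattern, with ESC-only islands most frequent at both ends of the range. Between 80 and 100 reads per kb, 232 of 2440 broad islands (9.51%, 8.37% to 10.7%) shared no NPC base. Below 60 reads per kb the share was 32 of 76 (42.1%, 30.9% to 54.0%). From 120 to 160 reads per kb it was 122 of 319 (38.2%, 32.9% to 43.8%), and from 160 to 200 reads per kb 24 of 61 (39.3%, 27.1% to 52.7%). Density and overlap both entered the selection, so this order is a description.

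**Figure D1:**
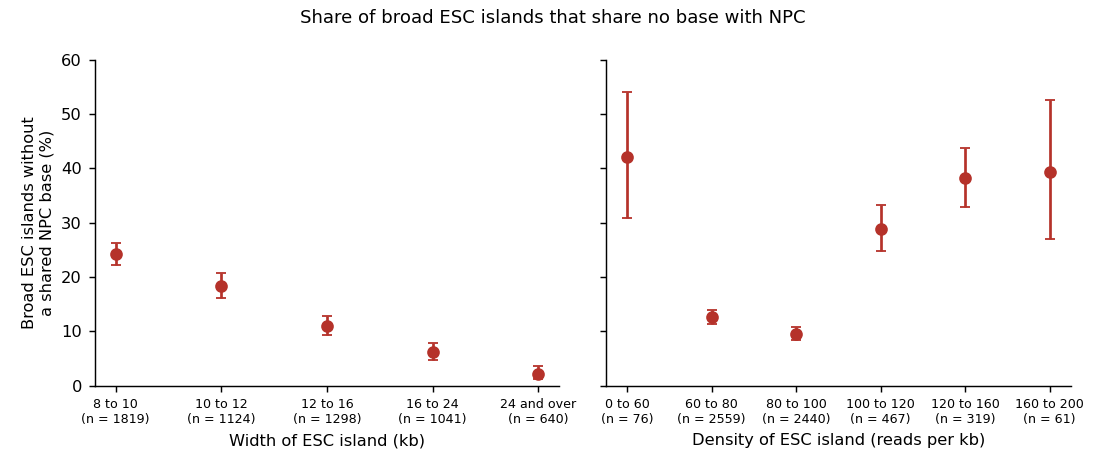
Share of broad ESC islands that share no base with an NPC island (vertical axis, %) by width in kb (left) and by density in reads per kb (right). Points are shares, bars are exact 95% intervals, and n is the number of broad ESC islands in the class. The share fell from 24.2% in the narrowest class to 2.19% in the widest, and was lowest at 9.51% between 80 and 100 reads per kb.

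The same shape was seen among islands of like width. Within 8 to 12 kb, the share without an NPC base was 23.6% (20.7% to 26.8%) in the lowest quintile of density of the broad islands and 12.9% (10.1% to 16.1%) in the middle quintile. In the highest quintile, which began at 94.4 reads per kb, it was 37.1% (33.4% to 41.0%). Even at 16 to 24 kb, 36 of 198 islands of the highest quintile (18.2%, 13.1% to 24.3%) lacked an NPC base, against 8 of 131 of the lowest quintile (6.11%, 2.67% to 11.7%).

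The ESC-only set was therefore wider in its spread of density than the overlapped set. Its median was 85.9 reads per kb (83.3 to 88.1), with quartiles at 72.4 and 109 and a range of 49.9 to 199. Overlapped broad islands had a median of 81.3 (80.9 to 81.6) and quartiles at 74.4 and 89.7. At a density of 120 reads per kb or more there were 146 islands in the ESC-only set (16.8%, 14.4% to 19.5%) and 234 in the overlapped set (4.63%, 4.07% to 5.25%). Just inside the density limit, 6 ESC-only islands lay between 180 and 200 reads per kb, and 8 broad islands without an NPC base fell outside it, at 201 to 470 reads per kb.

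Each island rested on enough reads for its own ESC density to be well counted. The median island held 912 reads, for which counting error alone is 3.31%, and the one with fewest held 442 reads, for which it is 4.76%. Sequenced reads are not independent molecules, so these errors cover counting only. As a scale, NPC islands of at least 8000 bp had a lowest density of 48 and a median of 78.6 reads per kb. Over NPC islands of any width, all of which count for the rule, these were 41.5 and 76.6. None of these densities was scaled to the depth of either library, so they do not show whether a stretch could have been called in NPC. On that unscaled basis, the ESC density of 539 ESC-only islands (62.0%) was at or above the median of the NPC islands of at least 8000 bp. In 26 it was below percentile 1 of those NPC islands, 59.4 reads per kb.

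The 2 islands with most reads were also the 2 widest, and 5 of the 10 with most reads were the 5 widest. The first, on chromosome 1 at 85227601 to 85296800, was 69.2 kb wide with 12681 reads, or 183 reads per kb. An NPC island of 3.0 kb lay 7.4 kb to its left, and the next to its right was 2295200 bp away. The second, on chromosome 7 at 67002201 to 67050400, was 48.2 kb wide with 6939 reads at 144 reads per kb. It was also among the most isolated, with 517 kb to the nearest NPC island and no NPC-covered base within 500 kb.

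A pair of neighbours on chromosome 6 also ranked high by reads. The island at 47600601 to 47637000 held 6634 reads at 182 reads per kb, and that at 47687201 to 47711600 held 4272 reads at 175 reads per kb. Both lay in a stretch of 268.6 kb without an NPC island, with another broad ESC-only island of 8.8 kb beside them at 47717201. The nearest NPC island to the pair was 0.8 kb wide.

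The other 6 of the 10 islands with most reads were spread over 6 chromosomes. On chromosome 5 the island at 15112601 to 15141200 held 4768 reads at 167 reads per kb, and on chromosome 19 the island at 23206001 to 23229200 held 4444 at 192 reads per kb. Both were far from NPC islands, at 173 and 80.4 kb. The islands on chromosome 8 (87239801 to 87271400), chromosome 3 (25415001 to 25453600) and chromosome 13 (98251401 to 98277400) held 4143, 4012 and 3745 reads over 31.6, 38.6 and 26.0 kb. These 3 lay 50.2, 176 and 117 kb from the nearest NPC island. The island on chromosome 17 at 34034201 to 34057600 differed from them, since NPC islands lay within 10.4 kb on both sides of its 23.4 kb and its 3405 reads.

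**Figure D2:**
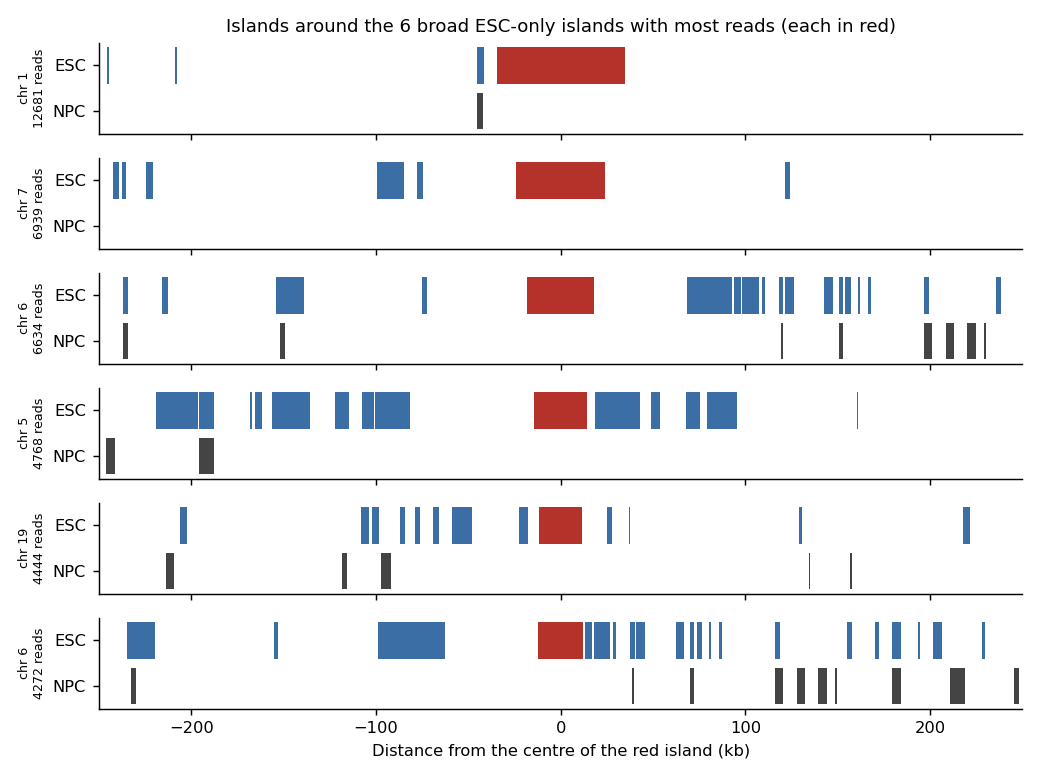
Islands of both lists within 250 kb of the centre of the 6 broad ESC-only islands with most reads. Each row is a cell type, the red block is the island itself, blue blocks are other ESC islands and dark blocks NPC islands, and the horizontal axis is distance in kb. No NPC island lay in the window around the island on chromosome 7, whereas NPC islands flanked both islands on chromosome 6 within the window.

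The densest islands included narrow ones. The highest density, 199 reads per kb, belonged to an island of 15.8 kb on chromosome 19 at 5838801 to 5854600. An NPC island of 16.2 kb began 600 bp to its right, and 50.8% of the flanking 100 kb on each side lay in NPC islands. Around the 2 narrowest of the 5 densest islands, on chromosome 11 at 62414801 to 62423000 (192 reads per kb) and on chromosome 4 at 118740001 to 118749400 (183 reads per kb), NPC islands covered 17.0% and 19% of those flanks. The part that multi-copy sequence plays in such densities was not tested.

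Broad ESC-only islands were close to NPC islands more often than they were remote. The median distance from an island's edge to the nearest NPC island was 8.2 kb (7.4 to 9.2 kb), with quartiles at 2.8 and 20.6 kb. An NPC island lay less than 10 kb from 483 islands (55.6%, 52.2% to 58.9%) and less than 50 kb from 772 (88.8%, 86.6% to 90.9%). The narrower ESC islands without a shared NPC base were farther away, with a median of 19 kb (18.4 to 19.6 kb) and 34.2% (33.6% to 34.8%) at less than 10 kb. From the broad ESC-only islands, the nearest other ESC island was closer than the nearest NPC island, at a median of 3.6 kb (3.4 to 4.0 kb). That median was smaller for overlapped broad islands, at 1.8 kb (1.6 to 2.0 kb). For the narrower ESC-only islands it was 14000 bp (13800 to 14400 bp).

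**Figure D3:**
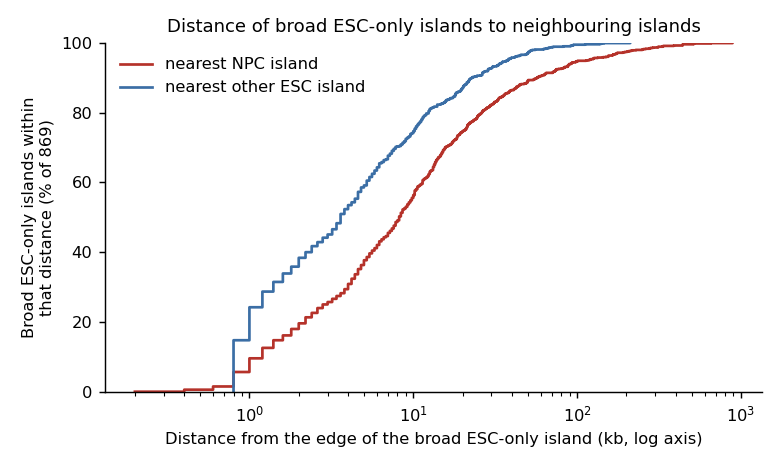
Cumulative share of the 869 broad ESC-only islands (vertical axis, %) by distance to the nearest NPC island (red) and to the nearest other ESC island (blue), in kb on a log axis. The curves pass 50% at 8.2 kb for NPC and 3.6 kb for ESC islands.

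A close NPC neighbour on both sides was uncommon. NPC islands lay less than 10 kb away on both sides of 133 islands (15.3%, 13.0% to 17.9%), and less than 5 kb away on both sides of 48 (5.52%, 4.10% to 7.26%). The nearest NPC island was mostly short, with a median width of 4.4 kb (4.0 to 4.8 kb) against 4.2 kb for the whole NPC list. It was itself at least 8000 bp wide beside 220 islands (25.3%, 22.5% to 28.3%), near the 24.2% of all NPC islands that are so wide.

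The 5 islands closest to an NPC island differed in how much of their surroundings NPC islands covered. On chromosome 15, the island at 88690801 to 88699600 held 1408 reads at 160 reads per kb and had an NPC island 400 bp away on each side. Its gap of 9.6 kb in the NPC list was the shortest around any of the 869 islands, and 45.3% of the flanking 100 kb was NPC-covered. On chromosome 5 at 122033801 to 122045000, NPC islands lay 400 and 800 bp away, and the covered share of the flanks was 71.4%. The shortest distance of all was 200 bp, on chromosome 7 at 20270001 to 20278200 (831 reads), with 46% of the flanks covered. Chromosome 11 (77304401 to 77315400, 1403 reads) and chromosome 3 (116202201 to 116212400, 658 reads) had islands 400 bp from an NPC island. Their flanks were covered to 18.2% and 22.9%, near the median of all 869 islands, and the far side of the chromosome 3 island was 19000 bp from an NPC island. In all, 50 islands were less than 1000 bp from an NPC island, and 31 overlapped broad islands shared less than 1000 bp with one.

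At the other end, 46 islands (5.29%) were at least 100 kb from any NPC island. The most distant were on chromosome 12, where the islands at 18778601 to 18788000 and at 20466601 to 20475400 were 889 and 654 kb away. They held 589 and 609 reads, at 62.7 and 69.2 reads per kb, and shared 1 stretch of 3239.6 kb without an NPC island. The next were the chromosome 7 island of 48.2 kb, an island on chromosome 13 at 66510401 to 66520400 (513 kb, 829 reads), and the companion of the chromosome 7 island at 66927001 to 66941600 (442 kb, 1746 reads). Remote islands were thus neither all sparse nor all dense. ESC islands also covered less of the sequence around them than around the 869 as a whole. Other ESC islands covered a median of 9.25% of the flanking 500 kb around the 46 islands, against 16.3% around all 869. Over all autosomes ESC islands covered less still, at 7.68%.

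Dense islands, with at least 120 reads per kb, were least frequent at 1 to 5 kb from an NPC island, where they numbered 21 of 266 (7.89%). Closer than 1 kb they numbered 8 of 50 (16%), at 5 to 10 kb 33 of 167 (19.8%) and at 10 to 50 kb 60 of 289 (20.8%). Farther out they numbered 13 of 51 (25.5%) at 50 to 100 kb and 11 of 46 (23.9%) from 100 kb on. The 146 dense islands had a median distance of 13.2 kb (9.8 to 18.4 kb), and the 723 others one of 7.4 kb (6.2 to 8.2 kb). Their median widths were 10.2 kb (9.6 to 10.8 kb) and 9.8 kb (9.6 to 10 kb), with intervals that overlap.

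Broad ESC-only islands lay in regions where NPC islands were sparser than around overlapped broad islands, yet denser than on the autosomes as a whole. Of the 100 kb on each side, a median of 21.9% (19.9% to 23.4%) lay in NPC islands, against 41.5% (40.7% to 42.2%) around overlapped broad islands. Over all autosomes NPC islands covered 12.4%. Close to the edge this value is held down by the rule, which allows no NPC base within the island, and an NPC island shared by an overlapped island often reaches beyond its edge. From 50 to 500 kb away, where this matters less, the medians were 23.6% (21.8% to 25.5%) and 33.9% (33.3% to 34.6%).

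Coverage by other ESC islands differed in the same direction, by less. It was 15.6% (14.7% to 16.4%) around ESC-only and 19.6% (19.2% to 20.2%) around overlapped broad islands at 50 to 500 kb. Among islands of 8 to 12 kb, the NPC medians at that distance were 23.8% (21.7% to 25.7%) and 29.9% (29.0% to 30.7%), and the ESC medians 15.4% (14.3% to 16.4%) and 17.3% (16.6% to 17.8%). At like width, the NPC medians were thus farther apart than the ESC medians.

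**Figure D4:**
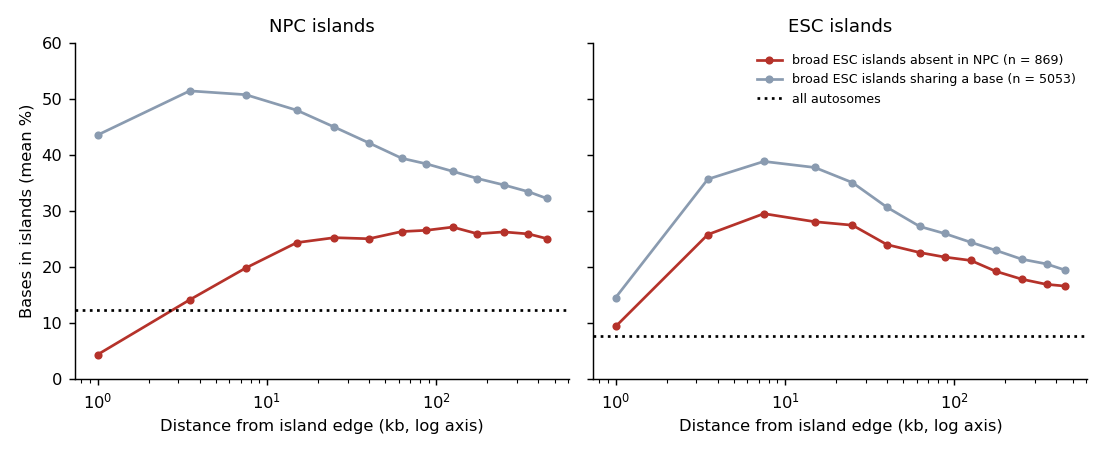
Mean share of bases in NPC islands (left) and in ESC islands (right) by distance from the island edge (kb, log axis), for the 869 broad ESC-only islands (red) and the 5053 overlapped broad islands (grey). The dotted line is the share over all autosomes, 12.4% for NPC and 7.68% for ESC. NPC coverage around ESC-only islands rose from 4.37% within 2 kb to 24.3% at 10 to 20 kb and then stayed between 25.03% and 27.1% from 20 kb out to 500 kb.

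By distance, NPC coverage was lowest next to the ESC-only islands, where the rule holds it down. It stayed below that around overlapped broad islands out to 400 to 500 kb, where it was 25.1% against 32.2%. NPC coverage around ESC-only islands reached 14.1% at 2 to 5 kb, above the value over all autosomes, and 24.3% at 10 to 20 kb. Around overlapped broad islands it was highest at 2 to 5 kb, at 51.4%, and declined to 32.2% at 400 to 500 kb. The ESC profile was also low next to the edge of both sets, at 9.39% within 2 kb of ESC-only islands and 14.5% within 2 kb of overlapped ones. There the calling holds it down, because SICER joined windows across gaps of up to 600 bp. No other ESC island lay closer than 800 bp to an island of either set. The ESC profile peaked at 5 to 10 kb, at 29.5% and 38.8%, and then declined to 16.6% and 19.4% at 400 to 500 kb.

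Other ESC islands near an ESC-only island also shared bases with NPC islands less often than those near an overlapped broad island. Within 100 kb there were 6813 pairs of a broad ESC-only island and another ESC island, and in 43.9% of them the other island overlapped an NPC island. Around overlapped broad islands this was 62.8% of 40956 pairs. Restricted to islands of 8 to 12 kb the values were 43.9% and 60.4%. Since 40.8% of all autosomal ESC islands overlapped an NPC island, the neighbours of ESC-only islands were near the general level. An island can enter several pairs, so no interval is given.

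The surroundings varied widely from island to island. In 46 of the 869, no NPC base lay within 100 kb, and in 4 none lay within 500 kb. At least 50% of the flanking 500 kb was covered in 84 islands (9.67%). The stretch without an NPC island around an ESC-only island had a median of 55.6 kb (51.4 to 60.4 kb), the island's own width included. It was at least 100 kb long for 248 islands (28.5%, 25.6% to 31.7%) and at least 1000 kb long for 26 (2.99%, 1.96% to 4.35%).

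Many of the islands came in runs, defined as neighbouring ESC-only broad islands up to 500 kb apart with no overlapped broad island between them. There were 145 runs with 343 islands (39.5%), of which 112 were pairs and 33 had at least 3 islands. In 12 of those 33, no NPC island lay between the first and the last island. Runs depend on how densely broad islands lie along a chromosome, and whether they exceed that density was not tested.

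The longest run lay on chromosome 11 at 88119601 to 88492400, with 7 islands in 372.8 kb. Their widths ranged from 8400 to 14800 bp and their densities from 74.0 to 113 reads per kb. NPC islands were not missing there, since 4 of them covered 9.23% of the run. ESC islands covered 35.03%.

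The 2 runs of 6 islands were unlike each other. The run on chromosome 5 at 14907801 to 15222200 was dense, with 17844 reads in its 6 islands at 113 to 167 reads per kb, and it includes the chromosome 5 island of 4768 reads. ESC islands covered 54.2% of its 314.4 kb and 1 NPC island 2.48%. The run on chromosome 7 at 46403001 to 46628200 held 7502 reads at 69.2 to 121 reads per kb, with 0 NPC islands in its 225.2 kb. It lies at one end of a stretch of 7515.4 kb without an NPC island, at 39233601 to 46749000, which held 8 broad ESC-only islands among 20 ESC islands covering 2.02% of its bases.

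Some short runs were nearly continuous in ESC. On chromosome 9 at 114408801 to 114495400, 4 islands with 5187 reads lay in 86.6 kb, of which ESC islands covered 83.6%, and no NPC island was found between them. On chromosome 14 at 118901601 to 118946400, 3 islands of 66.3 to 71.2 reads per kb lay in 44.8 kb that was 90.2% covered in ESC. Chromosome 4 (125823001 to 125860800) and chromosome 8 (94014601 to 94072000) had runs of 3 with 85.7% and 81.9% ESC coverage. Around the chromosome 9 run the flanks were NPC-covered, at 25.7 to 41.3% of 100 kb for its islands. The gap in the NPC list there was 100.6 kb long.

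Further runs of 4 islands lay on chromosomes 5, 4 and 1, with ESC islands covering 29.9%, 21.1% and 24.6% of their spans. On chromosome 5 at 146328601 to 146526400, 4 islands of 78.0 to 91.7 reads per kb were at least 276 kb from an NPC island. On chromosome 4 at 146863801 to 147078800, 4 islands of 99.6 to 123 reads per kb lay in a stretch of 397 kb without an NPC island. The island of 69.2 kb on chromosome 1 closed a run of 4 that began at 84852001, whose other islands had 103 to 137 reads per kb. Other long runs held many NPC islands. The runs of 5 on chromosome 14 at 3264601 to 3765400 and 6233001 to 6679000 held 11 and 14, covering 11.9% and 11.8%. Runs of 4 on chromosome 7 (38880601 to 39334600) and chromosome 11 (69512201 to 70054600) held 10 and 24, covering 14.6% and 23.5%.

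By chromosome, the share of broad ESC islands without an NPC base ranged from 7.74% (5.58% to 10.4%) on chromosome 2 to 24.5% (19.7% to 29.8%) on chromosome 14. Chromosome 19 followed with 42 of 185 (22.7%, 16.9% to 29.4%). After chromosome 2, the lowest shares were 9.52% (6.07% to 14.1%) on chromosome 16 and 11.1% on chromosomes 5 and 8.

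Much of the value on chromosome 14 came from its start. The first 10 Mb held 39 of the 73 islands on that chromosome, a share of 36.1% (27.1% to 45.9%) of the 108 broad ESC islands there. Without them the share was 34 of 190 (17.9%, 12.7% to 24.1%), beside 14.7% over all autosomes. The 39 islands had a narrow range of density, from 63.3 to 110 reads per kb with a median of 80.1, and none reached 120. They lay close to NPC islands, at a median of 4.4 kb and at most 33.2 kb. Copy number of this segment was not examined.

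**Figure D5:**
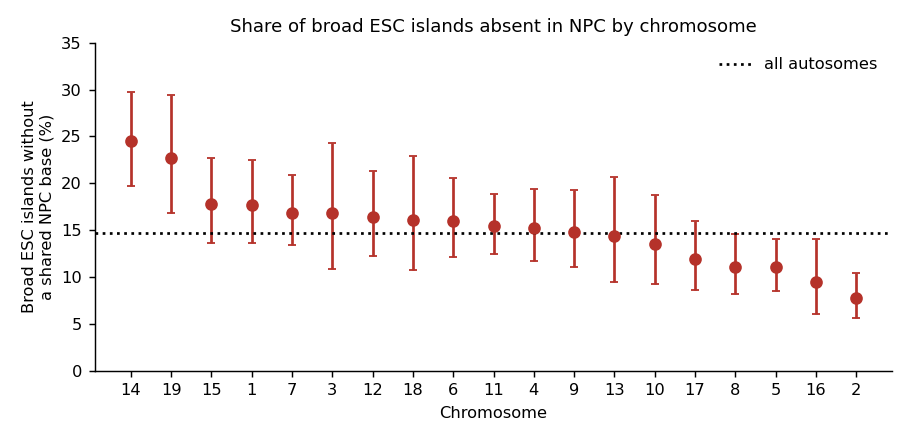
Share of broad ESC islands that share no base with an NPC island (vertical axis, %) for each autosome, in descending order. Points are shares, bars are exact 95% intervals, and the dotted line is the 14.7% of all autosomes. Chromosome 14 is highest at 24.5% and chromosome 2 lowest at 7.74%.

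The share of dense islands among the broad ESC-only islands differed between chromosomes, mostly on small counts. It was not computed for the other broad ESC islands of each chromosome, so whether it is particular to the ESC-only set is not known. Against 16.8% of all broad ESC-only islands, 7 of 22 on chromosome 3 (31.8%) and 11 of 40 on chromosome 2 (27.5%) had at least 120 reads per kb. Chromosome 7 held most of them by number, 17 of its 69 islands (24.6%). On chromosome 16 they numbered 0 of 22 and on chromosome 12 they numbered 1 of 45 (2.22%). On chromosome 12 the median density of the ESC-only islands was 75.1 reads per kb, the lowest of any autosome, and on chromosome 2 it was 102 reads per kb, the highest.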

How the data were processed

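H4K16ac was measured by ChIP-seq in 46c ES cells and in sorted day 5 neural progenitors, 1 library each, with 1 input library per cell type that entered no value here. The submitters' processing notes name mm9 as the build, Bowtie 0.12.7, SICER 1.1 for islands, CASAVA 1.8.2, bedtools 2.10.1 and SAMtools 0.1.7. SICER's window (200 bp), gap (600 bp) and false discovery rate (0.01) stand in the list names. Both lists were deposited by the authors with a whole number per island, which was taken as an unscaled count of H4K16ac reads. Duplicate removal and the use of the input are not given in the sources used here.

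Deposited ends mark the last base, and 1 was added to starts and ends to count from 1. Width is end minus start plus 1, density is reads per 1000 bp, and distances are the bases between edges. Shares have exact Clopper-Pearson 95% intervals. The overlap, distance and flank code was tested on 2564 simulated islands and got all of them right. In the real lists bedtools 2.31.1 gave the same 23395 ESC islands without a shared base and the same distance for all 869 selected islands. Python 3.11.15, numpy 2.4.6, pandas 2.3.3, scipy 1.17.1 and matplotlib 3.10.9 were used.

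The text names the 10 islands with most reads and the 5 widest, densest, farthest from and nearest to an NPC island (22 islands in all). It also names the runs of at least 4 islands and some runs of 3 with high ESC coverage, picked after seeing their values. The islands, classes and alternatives were chosen with earlier results of these data known. The limit of 120 reads per kb, the density classes and windows of 5 Mb were chosen after seeing the values. Genes and sequence were not analysed, because the annotation at hand is of another build.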

Additional observations from a re-analysis of the deposited data

How the results depend on the processing

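Other settings gave 82 values, of which 57 fell inside the reported interval (for counts, within 1.5 times the count) and 25 fell outside it. Only the difference in flank share can take either sign, and it stayed negative in every setting. Restriction to 8 to 12 kb, flanks of 50 to 500 kb and the first 10 Mb of chromosome 14 were settings chosen after seeing the data. Where a setting moved a value, the cause was not tested. With a width of at least 10000 bp there were 428 islands (10.4% of broad ESC islands), and the NPC-covered share of 100 kb flanks was lower than around overlapped broad islands by a difference of -21.7 points, against -19.6. With at least 6000 bp there were 1914 islands (21.2%) at a median of 82.8 reads per kb. Below 150 reads per kb, 13.3% of islands had at least 120. Using NPC islands with at least the median of 313 reads gave 1312 islands (22.2%), a median distance of 13800 bp and a flank share of 17.8%. Equal list lengths gave 16.4% and 9600 bp. Merging gaps of up to 2000 bp gave 1102 islands, and 618 of them began at the same base as 1 of the 869. Islands of the 869 that were joined to a neighbour on their left are not counted in the 618. The merged islands had a share of 17.6%, a median of 82.6 reads per kb and a median distance of 10000 bp. Of them, 12.3% had at least 120 reads per kb, and the flank share was 19.4%. The difference in flank share was -15.4 points at 8 to 12 kb and -10.4 points in flanks of 50 to 500 kb. Chromosome 14 had 1.67 times the share of all autosomes, and 1.25 times without its first 10 Mb. Runs held 33.0% of islands when neighbours had to lie within 200 kb. No paired analysis was possible because each cell type has 1 library, and no library could be left out. The alternatives for genes and sequence were not run.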

Other observations

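In windows of 5 Mb, 298 of the 411 autosomal windows with a broad ESC island held at least 1 broad ESC-only island, and 48 windows with 5 or more held 350 of the 869 (40.3%). The share of all broad ESC islands in those 48 windows was not computed, so this value may only reflect where broad islands are many. The 2 windows at the start of chromosome 14 held 26 and 13 islands, or 36.1% of the broad ESC islands in each. Next by number came 75000001 to 80000000 on chromosome 15, with 13 of 75 broad ESC islands. That share of 17.3% is near the 14.7% of all autosomes. The window at 95000001 to 100000000 on chromosome 11 held 12 of 37 (32.4%). On chromosome 19, 8 of the 15 broad ESC islands at 20000001 to 25000000 were ESC-only (53.3%), among them the island with 4444 reads. These windows were chosen after seeing the values.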
